A study of Homo sapiens with 6 samples.

Results

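The MYC network genes are the 3 MYC paralogs MYC, MYCN and MYCL, their dimer partner MAX, and the other proteins that pair with MAX, namely MXD1, MXD3, MXD4, MXI1, MNT and MGA. They were found by name, and all 10 were among the 55401 gene names measured. RNA sequencing covered 6 libraries of RMS13, a human alveolar rhabdomyosarcoma line whose parental cells came from a cell bank, and of RMS13-R, made resistant to MAL3-101, with 2 libraries, A and B, in each of 3 groups. The groups were the MAL3-101-resistant line RMS13-R with 10 µM MAL3-101, parental RMS13 with 10 µM MAL3-101, and parental RMS13 with DMSO, each for 9 h. MAL3-101 is a small-molecule inhibitor of HSP70 chaperones and DMSO its vehicle. The labels call the resistance derived, without saying whether RMS13-R is a single clone. They also leave unsaid whether A and B were separate cultures, and the p-values rest on the spread of these libraries, which may be technical. Resistant cells with DMSO were not analysed here, so traits of the resistant line and its drug response cannot be told apart. Levels are in TPM, a relative abundance scaled by transcript length; the depth behind a value, and with it its counting error, is unknown.

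MYC proteins are transcription factors of the basic helix-loop-helix leucine zipper class. They bind DNA only as dimers with MAX, most strongly at the E-box CACGTG, and promote the transcription of genes for growth, ribosome assembly and division. MXD1, MXD3, MXD4, MXI1 and MNT compete for MAX and for the same sites and bring in SIN3 and histone deacetylase corepressors, while MGA is a large T-box protein that joins MAX within a Polycomb-type repressor complex. MYCN is known as a direct target of the PAX3-FOXO1 fusion of alveolar rhabdomyosarcoma.

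The promoter windows of 4 members are shown because they are the genes on which the results turn or that hold an E-box. MXD1 and MYCN had the smallest adjusted p of the members with the inhibitor in parental cells, and MXD4 and MNT held a CACGTG in their window. The sequences are from RefSeq on GRCh38.p14, run from 250 bases before to 50 bases after the annotated start, read 5′ to 3′ along the gene, and carry the E-box in capitals. MXD1 lies on the plus strand at chr2:69914859-69915158, MYCN on the plus strand at chr2:15940300-15940599, MXD4 on the minus strand at chr4:2262060-2262359 and MNT on the minus strand at chr17:2401011-2401310.
MXD1: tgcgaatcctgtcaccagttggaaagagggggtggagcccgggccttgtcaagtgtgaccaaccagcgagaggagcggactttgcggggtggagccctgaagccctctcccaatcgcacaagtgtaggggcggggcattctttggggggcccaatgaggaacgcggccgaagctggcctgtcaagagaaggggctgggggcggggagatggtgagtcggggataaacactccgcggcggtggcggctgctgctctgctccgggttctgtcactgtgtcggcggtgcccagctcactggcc
MYCN: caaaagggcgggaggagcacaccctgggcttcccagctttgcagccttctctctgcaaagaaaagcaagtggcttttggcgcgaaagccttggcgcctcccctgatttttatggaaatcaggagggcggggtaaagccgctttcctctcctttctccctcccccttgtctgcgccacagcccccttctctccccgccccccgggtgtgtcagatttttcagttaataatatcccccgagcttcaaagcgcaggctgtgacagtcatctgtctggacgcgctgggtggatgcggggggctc
MXD4: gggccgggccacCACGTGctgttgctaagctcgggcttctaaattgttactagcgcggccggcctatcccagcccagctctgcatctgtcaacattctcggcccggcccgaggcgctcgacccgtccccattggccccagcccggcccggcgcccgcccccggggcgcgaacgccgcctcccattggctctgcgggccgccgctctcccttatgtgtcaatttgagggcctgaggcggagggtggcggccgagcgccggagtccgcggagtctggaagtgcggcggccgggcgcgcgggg
MNT: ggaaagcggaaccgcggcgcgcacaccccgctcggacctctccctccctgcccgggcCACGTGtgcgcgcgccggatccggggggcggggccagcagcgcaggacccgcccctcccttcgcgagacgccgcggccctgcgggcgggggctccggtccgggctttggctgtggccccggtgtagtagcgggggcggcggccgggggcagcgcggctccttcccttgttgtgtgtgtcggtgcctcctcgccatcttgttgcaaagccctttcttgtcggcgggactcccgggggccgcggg
The E-box began 238 bases before the start in MXD4 and 193 bases before it in MNT. The RefSeq table held 14 windows for 9 of the members, all but MYC, 3 each for MXI1 and MGA and 2 for MAX, and those of MXD4 and MNT were the 2 windows with a CACGTG, which reads the same on both strands. Of 35116 windows of that length over all genes, 7.26% held one. The CRE letters TGACGTCA, found in 1.85% of all windows, and TGATGNAA, which covers the common core of the composite element of ATF4 and CHOP and was searched on both strands, found in 3.62%, were in 0 of the 14. These matches describe letters in a window and no binding was measured.

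The 11 markers of muscle and of alveolar rhabdomyosarcoma, MYCN among them, summed to 2554 and 2586 TPM in resistant MAL3-101, 2778 and 2792 TPM in parental MAL3-101 and 3193 and 3086 TPM in DMSO libraries, with none below 1 TPM. Single markers moved both ways under these sums: 6 were higher and 4 lower in resistant than in parental MAL3-101 cells, and 4 higher and 4 lower than in DMSO cells. CHRNA1, a muscle acetylcholine receptor subunit, had 52.1 and 49.9 TPM, 315 and 312 TPM, and 285 and 337 TPM in resistant MAL3-101, parental MAL3-101 and DMSO libraries, and FOXO1 49.3 and 46.9 TPM, 26.9 and 24.9 TPM, and 28.6 and 22.5 TPM. The 6 immune markers summed to at most 2.66 TPM and the 7 epithelial ones to at most 6.79 TPM, with PTPRC, which marks blood cells, at no more than 0.0600 TPM. The 7 fibroblast markers summed to 138 and 139 TPM, 42.2 and 42.6 TPM, and 48.1 and 54.1 TPM in resistant MAL3-101, parental MAL3-101 and DMSO libraries. Most of the resistant sum was COL3A1, a collagen chain, at 134 and 135 TPM, with THY1 at 0 there. DCN and LUM lay below 1 TPM in every library. Of the 5 fibroblast markers tested, 2 were higher and 3 lower in resistant MAL3-101 cells, against parental MAL3-101 and against DMSO cells alike. COL1A1, another collagen chain, had 2.49 and 1.90 TPM, 16.6 and 18.9 TPM, and 8.17 and 11.1 TPM in the same order of groups. The 4 endothelial markers found summed to 19.3 and 21.2 TPM, 1.70 and 1.85 TPM, and 2.55 and 2.93 TPM in the same order, most of it TEK, while VWF and CDH5 lay below 1 TPM throughout. The part of these differences in the results was not tested. The DMSO pair was the most spread, with 171 of 15148 tested genes at least 2-fold apart in TPM + 1. There were 40 such genes in the resistant and 67 in the parental MAL3-101 pair. Genes were tested where at least 1 group averaged 1 TPM or more, which all 10 members did.

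Parental cells given MAL3-101 showed opposite changes of the 2 leading paralogs and of the 2 most changed antagonists. MYC and MXD1 rose, and MYCN, MXD3 and MNT fell. MYCL, MAX, MXD4, MXI1 and MGA did not pass the test. The 5 of 10 members called compare with 40.8% of all tested genes at an adjusted p under 0.05 in limma's moderated test on log2(TPM + 1), so the number of calls itself was near the background. Of all tested genes 22.6% were called higher and 18.2% lower. MXD1 stood out by size, since its change exceeded that of 99.6% of tested genes, against 93.1% for MYC, 91.3% for MXD3 and 88.3% for MYCN.

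MYC, the broadly expressed paralog that cells induce on growth signals, had 62.6 and 62.8 TPM in parental MAL3-101 libraries, against 31.3 and 40.0 TPM in DMSO libraries. Both treated libraries lay above both controls, and the gap between the DMSO libraries was the larger of the within-group gaps. The log2 fold change was 0.81 (SE 0.11), or 1.75-fold in TPM + 1 (limma adjusted p = 0.0013). In bulk RNA, fewer cells that express a gene and less of its RNA per cell cannot be told apart, here and below. MYCN, the paralog typical of neural and embryonal tumours, had 53.2 and 54.2 TPM with MAL3-101, against 88.0 and 83.8 TPM with DMSO. The groups did not overlap, and the log2 fold change was -0.67 (SE 0.05, limma adjusted p = 0.000165), or 0.630-fold in TPM + 1. MYCL, the third paralog, had 8.42 and 8.44 TPM with MAL3-101, against 10.99 and 8.52 TPM with DMSO. Its treated values lay just below the lower control, with a log2 fold change of -0.18 (95% interval -0.48 to 0.12).

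MYCN was therefore the most abundant member in DMSO and resistant libraries, and MYC the most abundant in parental MAL3-101 libraries. The level of MYC divided by that of MYCN was 0.444 and 0.448 in resistant MAL3-101, 1.18 and 1.16 in parental MAL3-101 and 0.356 and 0.477 in DMSO libraries. As a share of the 3 paralogs' summed TPM, MYC made up 28.4 ± 0.191% in resistant MAL3-101, 50.2 ± 0.212% in parental MAL3-101 and 27.1 ± 4.38% in DMSO libraries (SD, n = 2 each), and MYCN 63.6 ± 0.106%, 43.0 ± 0.247% and 65.4 ± 2.96%. The sum itself varied far less, with 128.0 and 128.4 TPM in resistant MAL3-101, 124.2 and 125.4 TPM in parental MAL3-101 and 130.3 and 132.3 TPM in DMSO libraries. With median-ratio scaling the mean sums were 133, 120.3 and 129 TPM, which turns the order of resistant MAL3-101 and DMSO libraries. With 2 libraries a group, an exact permutation test of such a single value could not pass the threshold, so no test is given for sums, shares and ratios.

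**Figure D1:**
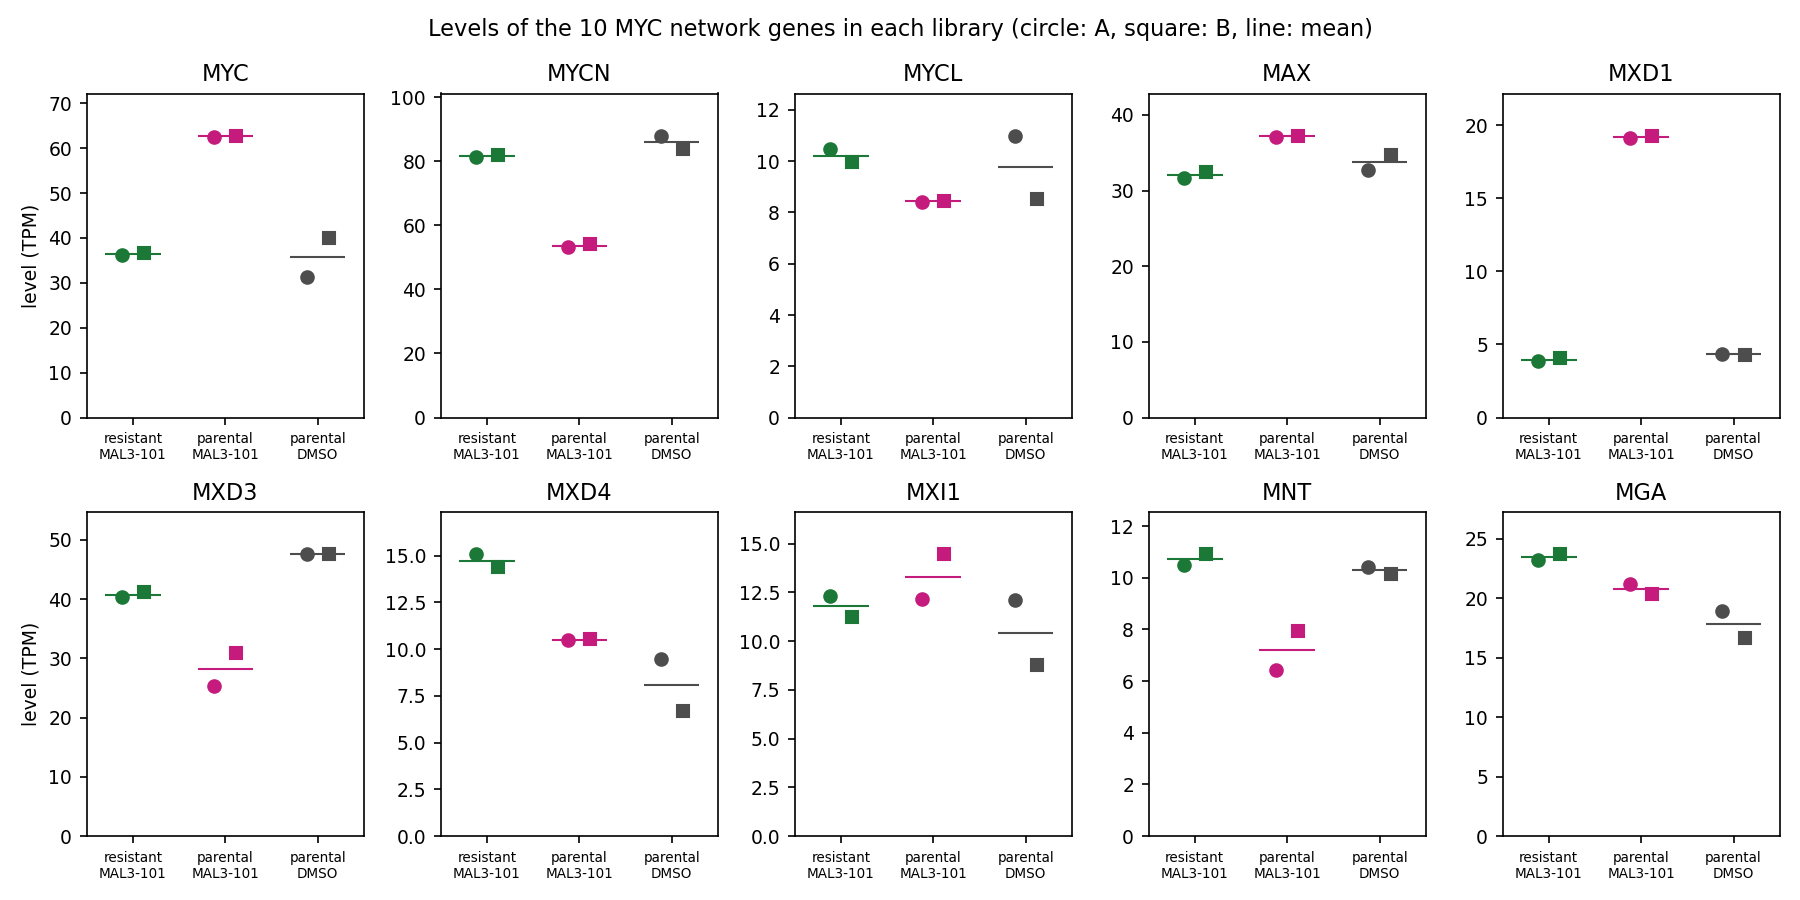
Level in TPM (y axis, from 0, with its own scale in each panel) of the 10 MYC network genes in resistant MAL3-101, parental MAL3-101 and parental DMSO libraries; circles are library A, squares library B and lines the mean of 2. MYC and MXD1 are highest in the parental MAL3-101 libraries, where MYCN, MXD3 and MNT are lowest.

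MAX, the shared partner, differed little. It had 37.1 and 37.3 TPM in parental MAL3-101, against 32.7 and 34.8 TPM in DMSO libraries, a log2 fold change of 0.14 (95% interval -0.01 to 0.28) that did not pass. The 3 paralogs together stood at 4.04 and 3.96 times the MAX level in resistant MAL3-101, 3.35 and 3.37 times in parental MAL3-101 and 3.98 and 3.81 times in DMSO libraries. This compares transcripts and not proteins.

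Among the antagonists, MXD1 rose most. MXD1, the member known for rising as cells stop dividing and differentiate, had 19.1 and 19.3 TPM in parental MAL3-101, against 4.37 and 4.28 TPM in DMSO libraries. Each pair was tight and the groups were far apart, with a log2 fold change of 1.92 (SE 0.10), or 3.79-fold in TPM + 1 (limma adjusted p = 3.3e-05). MXD1 shares 237 exon bases with SNRNP27 on the same strand in GENCODE 29, and SNRNP27 stayed between 89.9 and 103.8 TPM in all 6 libraries. The part of this overlap in the MXD1 values was not tested.

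MXD3, an antagonist unusual in being expressed in dividing cells, moved the other way. It had 25.4 and 30.8 TPM with MAL3-101, against 47.6 and 47.5 TPM with DMSO, with no overlap and a log2 fold change of -0.74 (SE 0.09, limma adjusted p = 0.00101). Its exons overlap those of RAB24 on the same strand by 926 bases and of PRELID1 on the opposite strand by 1158 bases in GENCODE 29, and neither the annotation nor the strand setting behind the TPM is given. RAB24 had 21.4 and 22.4 TPM in resistant MAL3-101, 44.9 and 46.0 TPM in parental MAL3-101 and 48.9 and 52.2 TPM in DMSO libraries, and PRELID1 139.8 and 140.6 TPM, 214 and 212 TPM, and 273 and 325 TPM. Both neighbours were, like MXD3, lower in parental MAL3-101 than in DMSO libraries. Both were lowest in resistant libraries, and MXD3 in parental MAL3-101 libraries. The part of these overlaps in the MXD3 values was not tested.

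MNT, the most widely expressed of the antagonists, had 6.44 and 7.94 TPM with MAL3-101, against 10.4 and 10.2 TPM with DMSO, and its log2 fold change was -0.47 (SE 0.12, limma adjusted p = 0.0164). The call was lost when parental MAL3-101 library A was left out (-0.34, limma adjusted p = 0.114). MXD4, a relative of MXD1 linked to differentiation, had 10.5 and 10.5 TPM with MAL3-101, against 9.49 and 6.67 TPM with DMSO, and a log2 fold change of 0.36 (95% interval 0.01 to 0.71, limma adjusted p = 0.0915). MXI1, also named MXD2, had 12.2 and 14.5 TPM, against 12.1 and 8.77 TPM, with 0.33 (95% interval -0.03 to 0.70). MGA had 21.2 and 20.4 TPM, against 18.9 and 16.7 TPM, with 0.22 (95% interval 0.02 to 0.41, limma adjusted p = 0.075). None of these last 3 passed, and the DMSO libraries of MXD4 and MXI1 differed by 0.45 and 0.42 on the log2 scale. Without DMSO library A, all 3 passed, at 0.59, 0.55 and 0.30. MAX (0.18) and MYCL (-0.35) passed without DMSO library B.

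The antagonists' pool, without MGA, changed in makeup as the paralogs' pool did. MXD1 made up 4.83 ± 0.177% of the summed TPM of MXD1, MXD3, MXD4, MXI1 and MNT in resistant MAL3-101, 24.6 ± 1.97% in parental MAL3-101 and 5.37 ± 0.230% in DMSO libraries (SD, n = 2 each). MXD3 made up 49.7 ± 0.834%, 35.8 ± 1.86% and 59.0 ± 3.37%, the largest share in every library. The sum was 82.1 and 81.8 TPM in resistant MAL3-101, 73.6 and 83.1 TPM in parental MAL3-101 and 84.0 and 77.4 TPM in DMSO libraries, and these ranges overlapped. The overlap depended on scaling, since after median-ratio scaling the sums were 86.0 and 84.5 TPM, 71.0 and 79.96 TPM, and 80.7 and 77.4 TPM in the same order, with both resistant libraries above the others. The paralog sum over the antagonist sum was 1.56 and 1.57 in resistant MAL3-101, 1.69 and 1.51 in parental MAL3-101 and 1.55 and 1.71 in DMSO libraries, so the ranges of this ratio overlapped as well.

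**Figure D2:**
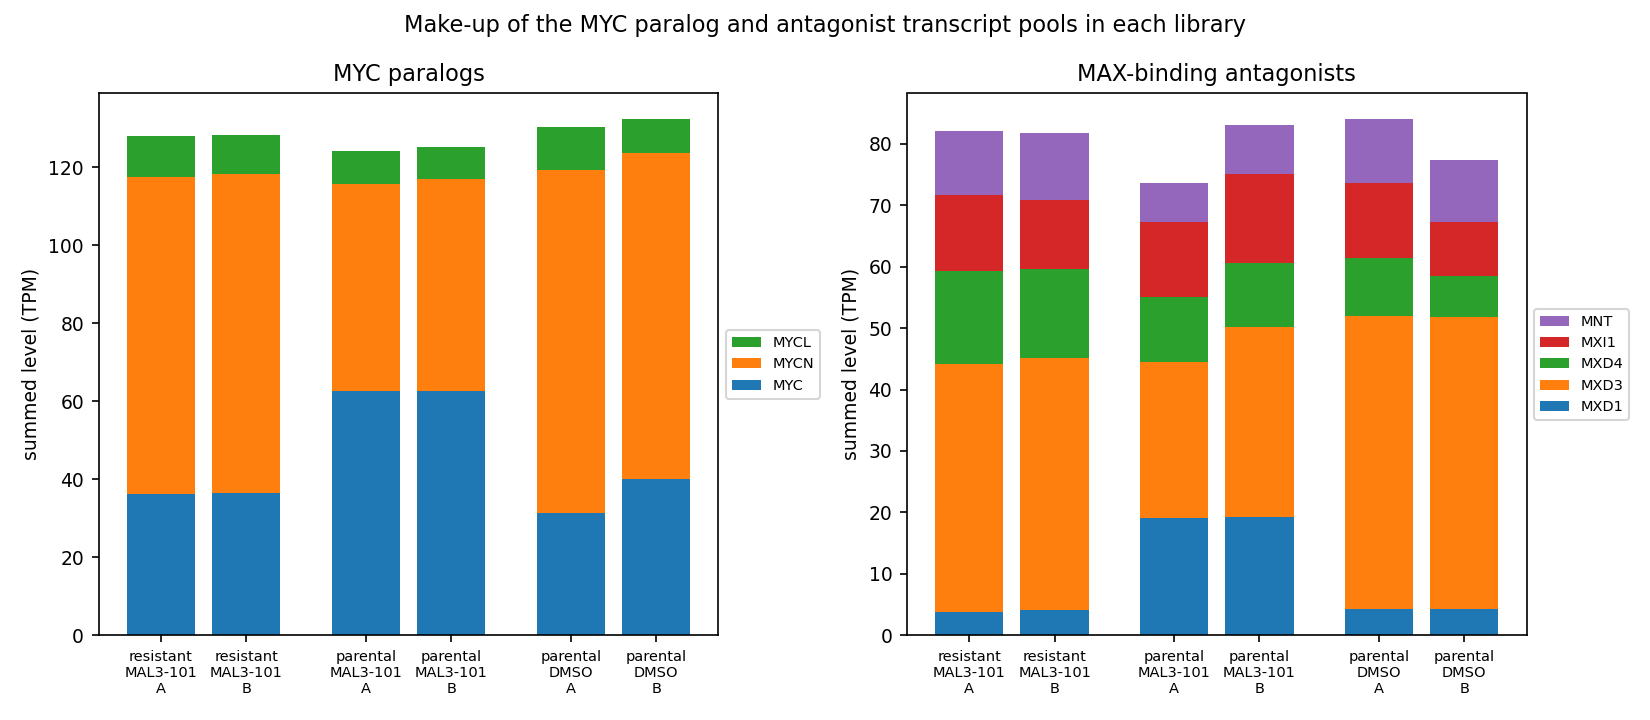
Summed level in TPM (y axis, from 0) of the MYC paralogs (left) and of the MAX-binding antagonists without MGA (right), 1 stacked bar per library in the order resistant MAL3-101, parental MAL3-101 and parental DMSO. The paralog bars stand between 124.2 and 132.3 TPM, while the MYC segment is largest in parental MAL3-101 libraries and the MYCN segment smallest.

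With MAL3-101 in both lines, resistant cells had less MYC, MXD1 and MAX and more MYCN, MXD3, MXD4 and MNT than parental cells. The 7 of 10 members called compare with 56.1% of all tested genes, of which 21.3% were called higher and 34.8% lower over the whole table. This comparison uses the same parental MAL3-101 libraries as the one above, so opposite signs in the pair of comparisons are not separate observations. MYC stood at 36.2 and 36.6 TPM in resistant, against 62.6 and 62.8 TPM in parental libraries, and its log2 fold change was -0.77 (SE 0.11, limma adjusted p = 0.000763). MYCN had 81.4 and 81.8 TPM, against 53.2 and 54.2 TPM, with 0.59 (SE 0.05, limma adjusted p = 8.98e-05). Neither pair of groups overlapped. MYCL had 10.5 and 9.97 TPM, against 8.42 and 8.44 TPM, with 0.25 (95% interval -0.05 to 0.55), which did not pass, though the groups did not overlap. Both MYCL (0.35) and MGA (0.27) passed here with median-ratio scaling, and without either DMSO library.

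MXD1 had 3.86 and 4.05 TPM in resistant, against 19.1 and 19.3 TPM in parental MAL3-101 libraries. The log2 fold change was -2.03 (SE 0.10, limma adjusted p = 1.12e-05), a change exceeding that of 98.2% of tested genes. MXD3 had 40.3 and 41.2 TPM, against 25.4 and 30.8 TPM, with 0.53 (SE 0.09, limma adjusted p = 0.0022), and MNT 10.5 and 10.9 TPM, against 6.44 and 7.94 TPM, with 0.52 (SE 0.12, limma adjusted p = 0.00697). MNT lost its call without library A of parental MAL3-101 (limma adjusted p = 0.0546) or resistant library B (limma adjusted p = 0.0569). MXD4 had 15.1 and 14.4 TPM, against 10.5 and 10.5 TPM, with 0.45 (SE 0.15, limma adjusted p = 0.0343). MAX had 31.7 and 32.4 TPM, against 37.1 and 37.3 TPM, with -0.21 (SE 0.06, limma adjusted p = 0.0238).

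The calls of MXD4 and MAX were the least firm. Leaving out any 1 of the 4 libraries compared ended both, with limma adjusted p from 0.112 to 0.153 for MXD4 and from 0.0984 to 0.141 for MAX. For MAX the call also ended with median-ratio scaling (-0.10, limma adjusted p = 0.235) and with upper-quartile scaling (-0.09, limma adjusted p = 0.290). MXI1 had 12.3 and 11.3 TPM, against 12.2 and 14.5 TPM, and a log2 fold change of -0.16 (95% interval -0.53 to 0.21). MGA had 23.2 and 23.7 TPM, against 21.2 and 20.4 TPM, with 0.16 (95% interval -0.03 to 0.36). MXI1 overlapped between the groups and MGA did not.

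Set against parental DMSO, resistant cells with MAL3-101 differed in MXD4 and MGA, both higher, while the other 8 members did not pass. The 2 of 10 called compare with 50.6% of all tested genes, with 20.9% called higher and 29.7% lower, so fewer members were called than the background would give. MXD4 had 15.1 and 14.4 TPM in resistant MAL3-101, against 9.49 and 6.67 TPM in DMSO libraries. Its log2 fold change was 0.81 (SE 0.15), or 1.75-fold in TPM + 1 (limma adjusted p = 0.0034). MGA had 23.2 and 23.7 TPM, against 18.9 and 16.7 TPM, with 0.38 (SE 0.08, limma adjusted p = 0.0075). Neither gene overlapped between groups. Without resistant library B, MGA did not pass (limma adjusted p = 0.063).

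Of the 5 members called with the inhibitor in parental cells, 4 had intervals for resistant MAL3-101 against DMSO that held 0. The interval of MXD3 lay just below it. The share of all genes called in parental cells with such an interval was not computed, so the count is not read as particular to the members. The log2 fold change was -0.07 (95% interval -0.19 to 0.05) for MYCN, -0.10 (95% interval -0.34 to 0.13) for MXD1, 0.04 (95% interval -0.21 to 0.29) for MYC and 0.05 (95% interval -0.22 to 0.32) for MNT. MXD3 had 40.3 and 41.2 TPM, against 47.6 and 47.5 TPM, with -0.22 (95% interval -0.43 to -0.0046, limma adjusted p = 0.082). MXD3 passed when the parental MAL3-101 libraries were left out of the fit (limma adjusted p = 0.0344). Without DMSO library A, MXI1 passed (0.39, limma adjusted p = 0.0299). MAX, MYCL and MXI1 had -0.07 (95% interval -0.22 to 0.07), 0.07 (95% interval -0.23 to 0.37) and 0.17 (95% interval -0.19 to 0.54). For MYC the result rested on which DMSO library was used, since it was lower in resistant cells without DMSO library A (-0.13, limma adjusted p = 0.0484) and higher without DMSO library B (0.21, limma adjusted p = 0.00944).

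**Figure D3:**
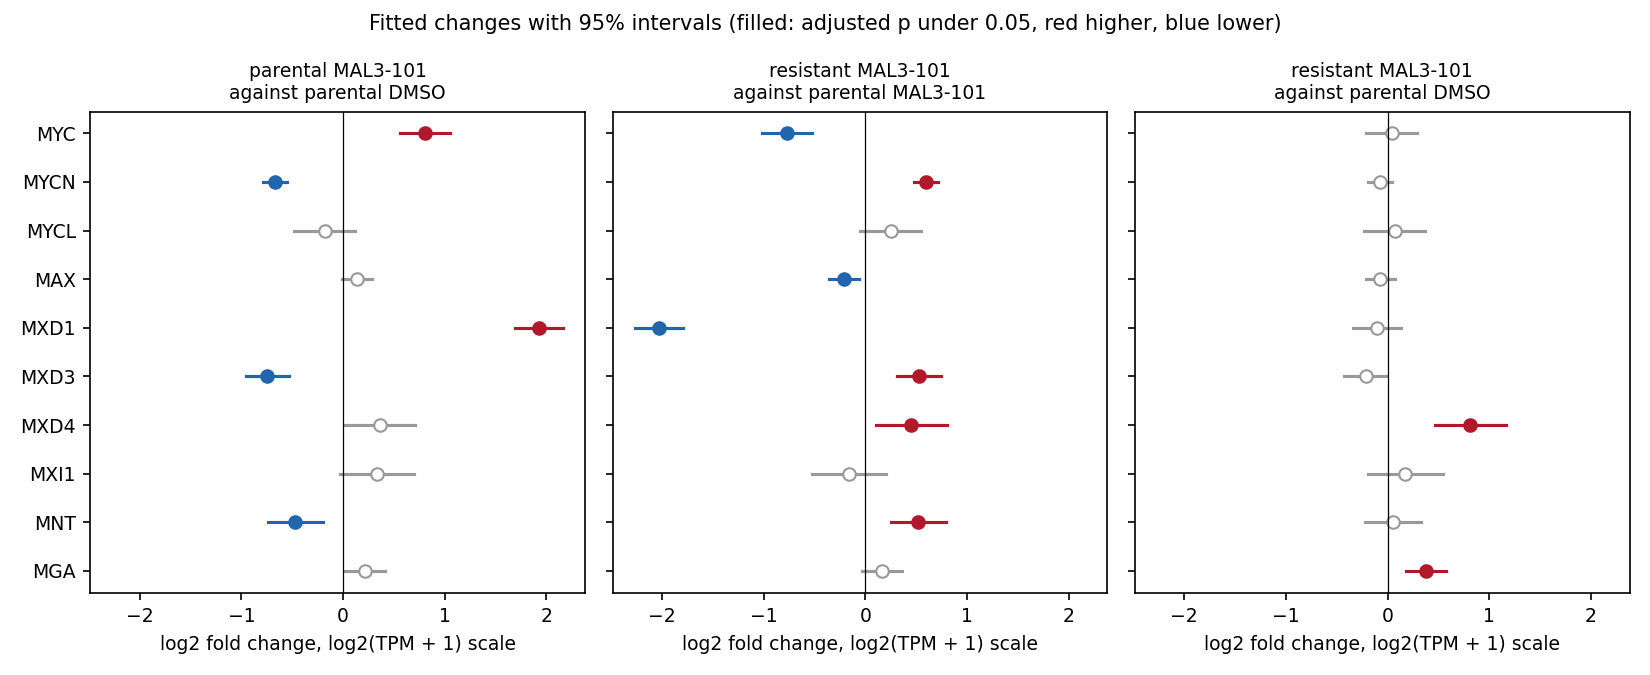
Log2 fold change on the log2(TPM + 1) scale (x axis) with its 95% interval for each member in the 3 comparisons, filled red where higher, filled blue where lower and open where not called at an adjusted p under 0.05. MXD1 has the largest value in the first comparison (1.92) and the lowest in the second (-2.03), and in the third the called members are MXD4 and MGA.

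By order of levels, MYC, MAX, MXD1 and MXI1 were highest in parental MAL3-101 libraries, MYCN and MXD3 in DMSO libraries, and MYCL, MXD4, MNT and MGA in resistant MAL3-101 libraries. Neighbouring groups in that order overlapped for MYC (resistant MAL3-101 and DMSO), MYCL (resistant MAL3-101 and DMSO) and MXI1 (both steps). The share of all tested genes without such overlap was not computed, so separation is not read as particular to the members. MYCN, MAX, MXD1, MXD3 and MNT did not overlap between resistant MAL3-101 and DMSO libraries, yet none passed there in the main fit. For MNT that log2 fold change was 0.05 (limma adjusted p = 0.729). MXD4 and MGA shared one order, resistant MAL3-101 above parental MAL3-101 above DMSO. As descriptions, the tested genes whose centred log2(TPM + 1) over the 6 libraries lay nearest were LONP1, a mitochondrial protease (Euclidean distance 0.112), for MYC, TTI1 (0.0479) for MYCN, MT-RNR1, a mitochondrial ribosomal RNA (0.232), for MXD1, DDX11L2 (0.134) for MXD3 and RP11-327P2.5 (0.0800) for MXD4. MT-RNR1 had 1063 and 1017 TPM in resistant MAL3-101, 4699 and 5026 TPM in parental MAL3-101 and 1199 and 1126 TPM in DMSO libraries. Mitochondrial ribosomal RNA as a whole made up 0.784% and 0.767% of TPM in resistant MAL3-101, 1.92% and 1.97% in parental MAL3-101 and 0.533% and 0.565% in DMSO libraries. The parental MAL3-101 libraries thus stood apart in it as they did in MXD1 and MYC. With TPM recomputed without mitochondrial genes, MXD1 and MYC stayed called in parental MAL3-101 against DMSO and in resistant against parental MAL3-101. Any other part of mitochondrial ribosomal RNA in those results was not tested. With 2 libraries in each of 3 groups, such closeness rests on few points.

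Neighbours on the chromosome were set beside MYC and MYCN. PVT1, a long non-coding RNA next to MYC, had 5.13 and 4.10 TPM in resistant MAL3-101, 15.5 and 17.4 TPM in parental MAL3-101 and 5.71 and 7.05 TPM in DMSO libraries. In parental cells it rose with MAL3-101 by 1.24 on the log2 scale (SE 0.14, limma adjusted p = 0.000837), and in resistant against parental MAL3-101 cells it had -1.64 (SE 0.14, limma adjusted p = 9.98e-05). NSMCE2, also near MYC, rose in parental cells by 0.70 (SE 0.11), while TRIB1 (0.14, 95% interval -0.22 to 0.49) and SQLE (0.04, 95% interval -0.11 to 0.20) did not pass. FAM84B, another neighbour of MYC, had -0.39 (95% interval -0.76 to -0.03, limma adjusted p = 0.0827) in parental cells and -1.22 (SE 0.16, limma adjusted p = 0.000541) in resistant against parental MAL3-101 cells. Its levels were low, with 0.45 and 0.68 TPM in resistant MAL3-101, 2.39 and 2.92 TPM in parental MAL3-101 and 3.75 and 3.81 TPM in DMSO libraries. MYCNOS, which is antisense to MYCN and shares 98 exon bases with it, had 3.38 and 4.41 TPM, 3.16 and 4.53 TPM, and 6.23 and 3.67 TPM in resistant MAL3-101, parental MAL3-101 and DMSO libraries, with the groups overlapping. On the side of MYCN, DDX1 had 0.14 (95% interval 0.03 to 0.25, limma adjusted p = 0.0546) and NBAS rose by 0.62 (SE 0.09, limma adjusted p = 0.0023), so neither moved in the direction of MYCN. Of the 9 neighbours, 3 rose (33.3%), 0 fell and 6 did not pass in parental cells, with a median of 0.14 against 0.02 over all tested genes. Of all tested genes 22.6% rose and 18.2% fell there. Between resistant and parental MAL3-101 cells 1 was higher (11.1%) and 4 were lower (44.4%), against 21.3% and 34.8% of all genes. The median was -0.11 against -0.10 over all genes. Against DMSO 2 were higher (22.2%) and 1 lower (11.1%), against 20.9% and 29.7%, with a median of 0.17 against -0.06. With median-ratio scaling 3 and 5 were higher in those comparisons. Against DMSO 1 was higher without resistant library B, and 4 were higher and 2 lower without DMSO library A. Between the lines 2 were lower without parental MAL3-101 library A or resistant library B, and 2 higher without either DMSO library.

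Genes that MYC is known to raise were called lower more often than higher when MAL3-101-treated cells of either line were set against DMSO, while between the lines they lay nearer the background. Of 60 such genes, mostly for ribosome assembly, 59 were tested, and TERT was listed at 0 in every library. In parental cells with MAL3-101 7 rose, 26 fell and 26 did not pass, with a median log2 fold change of -0.19 against 0.02 over all tested genes. That is 11.9% higher and 44.1% lower, against 22.6% and 18.2% of all tested genes. NOP56, a core protein of box C/D small nucleolar particles, had 264.9 and 286 TPM with MAL3-101, against 476 and 552 TPM with DMSO, and fell by 0.89 (SE 0.07, limma adjusted p = 0.00024). UNG, a uracil glycosylase, fell by 0.74 (SE 0.08) and DCTPP1, a nucleotide pyrophosphatase, fell by 0.71 (SE 0.05). The count of rises was 2 without parental MAL3-101 library A and 1 without its library B, and 4 with upper-quartile scaling or with no filter on low values.

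Between resistant and parental MAL3-101 cells 11 of these genes were higher (18.6%) and 26 lower (44.1%), against 21.3% and 34.8% of all tested genes, and their median of -0.12 was close to the -0.10 of all tested genes. SORD, sorbitol dehydrogenase, was higher by 1.14 (SE 0.07) and RRP12, a ribosome assembly factor, had -0.82 (SE 0.11). Against DMSO 7 were higher (11.9%) and 36 lower (61.0%), against 20.9% and 29.7% of all tested genes, with a median of -0.30 against -0.06. NOLC1, a nucleolar scaffold protein, had 155.9 and 155.3 TPM in resistant MAL3-101, against 310.0 and 323 TPM in DMSO libraries, and a log2 fold change of -1.02 (SE 0.04, limma adjusted p = 9.18e-06). The count of higher genes in that comparison was 4 without resistant library A and 3 without resistant library B.

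Genes that MYC is known to repress were called higher more often than lower in parental cells with MAL3-101. Of 9 tested, 5 rose, 0 fell and 4 did not pass, with a median of 0.55 against 0.02. That is 55.6% higher, against 22.6% of all tested genes, of which 18.2% were lower. GADD45A, a stress and growth arrest gene, rose by 1.61 (SE 0.05), CDKN1A, the inhibitor p21, by 1.34 (SE 0.09), CDKN2B, the inhibitor p15, by 1.08 (SE 0.12) and KLF6, a zinc finger factor, by 0.99 (SE 0.08). GADD45A and CDKN1A also respond to other stress pathways. The count of falls was 1 without DMSO library A and 2 without DMSO library B. CDKN1C, the tenth, was under the filter. Set against parental MAL3-101 cells, resistant ones had 2 higher (22.2%) and 5 lower (55.6%), with a median of -0.74 against -0.10. Of all tested genes 21.3% were higher and 34.8% lower there. CDKN1A had -1.31 (SE 0.09). Against DMSO 3 were higher (33.3%) and 2 lower (22.2%), against 20.9% and 29.7% of all tested genes (median 0.00 against -0.06). THBS1, which encodes thrombospondin 1, had the largest change of the list there, with 8.88 and 7.52 TPM in resistant MAL3-101, against 40.9 and 84.1 TPM in DMSO libraries, and a log2 fold change of -2.70 (SE 0.29, limma adjusted p = 0.000289). It was also lower than in parental MAL3-101 cells, with -1.91 (SE 0.29), and had -0.79 (limma adjusted p = 0.0625) in parental cells. CDKN1B, the inhibitor p27, had 51.4 and 51.5 TPM in resistant MAL3-101, against 22.2 and 19.9 TPM in DMSO libraries, a log2 fold change of 1.25 (SE 0.07, limma adjusted p = 2.31e-05). Without resistant library A or B 1 gene was called higher there, and without DMSO library B 4 were called lower.

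**Figure D4:**
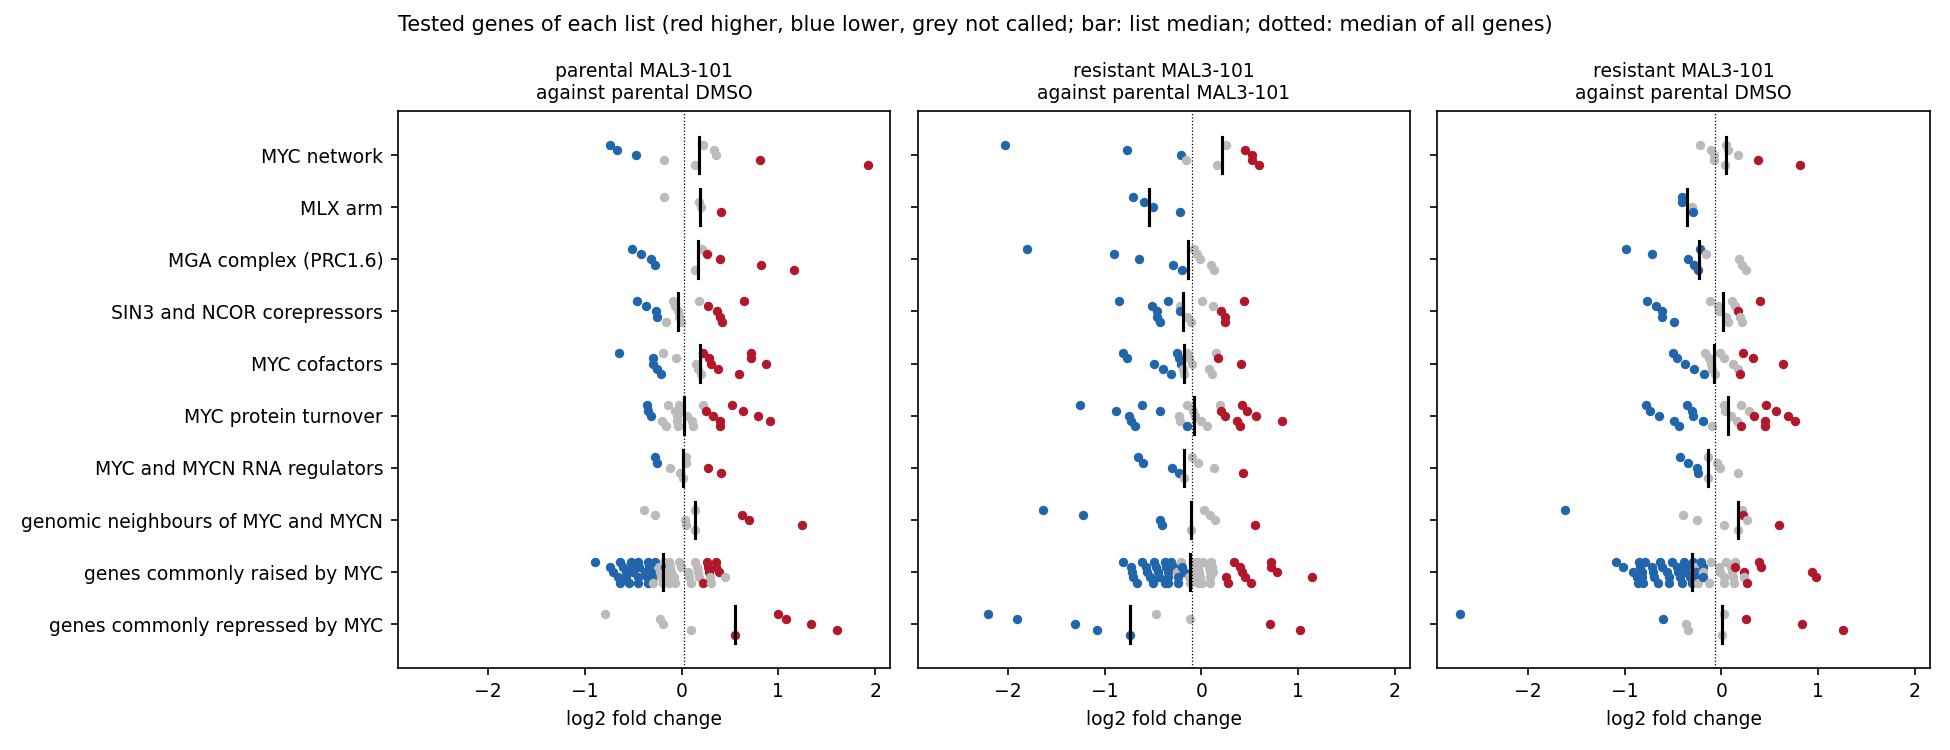
Log2 fold change (x axis) of each tested gene in the MYC network and 9 related lists (rows) for the 3 comparisons, red where called higher, blue where called lower and grey where not called; bars are list medians and dotted lines the median of all 15148 tested genes. The genes commonly raised by MYC have a median of -0.19 and those commonly repressed one of 0.55 in parental MAL3-101 against DMSO.

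Partners of the network were mixed. Of 18 cofactors of MYC 8 rose, 5 fell and 5 did not pass in parental cells with MAL3-101 (median 0.19 against 0.02), among them the acetyltransferases EP300 with 0.87 (SE 0.07) and CREBBP with 0.71 (SE 0.07) and, falling, the acetyltransferase KAT2A with -0.65 (SE 0.06). Resistant cells had 2 of them higher and 8 lower than parental MAL3-101 cells, with CREBBP at -0.81 (SE 0.07) and TRRAP, a scaffold that MYC binds, at -0.77 (SE 0.08). Against DMSO 4 were higher (22.2%) and 5 lower (27.8%), against 20.9% and 29.7% of all tested genes. Without parental MAL3-101 library A 2 cofactors fell in parental cells, and without its library B 4 rose and 3 fell. Between the lines, 1 was higher and 5 lower without any 1 of the 4 libraries compared, and 4 were higher and 13 lower without either DMSO library. Against DMSO, 2 were higher without either resistant library and 3 lower without any 1 resistant or parental MAL3-101 library. Rescaling removed the lean between the lines: median-ratio scaling gave 4 higher and 5 lower, and upper-quartile scaling 5 of each. Against DMSO 3 were lower after either. As shares of the list, 44.4% rose and 27.8% fell in parental cells, and 11.1% were higher and 44.4% lower between the lines, against the shares of all tested genes given above.

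Of 10 partners of MGA in its Polycomb-type complex 4 rose, 4 fell and 2 did not pass in parental cells. Of all tested genes 22.6% rose and 18.2% fell there. YAF2 and RYBP, which are related subunits, rose by 1.16 (SE 0.13) and 0.82 (SE 0.09), and CBX3 fell by 0.52 (SE 0.05). Between resistant and parental MAL3-101 cells 0 were higher and 5 lower, and against DMSO 0 were higher and 6 lower. All tested genes were 21.3% higher and 34.8% lower between the lines and 20.9% higher and 29.7% lower against DMSO, and the list's medians were -0.14 and -0.23, against -0.10 and -0.06. RYBP had 6.73 and 7.32 TPM in resistant MAL3-101, 27.9 and 26.0 TPM in parental MAL3-101 and 15.2 and 14.5 TPM in DMSO libraries. It lay lowest in resistant libraries, where MGA lay highest, but RYBP was highest in parental MAL3-101 and MGA lowest in DMSO libraries. Their orders thus did not mirror each other. Under median-ratio scaling 2 partners were higher and 3 lower between the lines, and 3 were higher against DMSO. In parental cells 2 fell without either MAL3-101 library, and 2 rose without library B. Between the lines 3 were lower without parental MAL3-101 library B or resistant library A, and 1 was higher without either DMSO library. Against DMSO 3 were lower without either resistant library, and 2 higher without DMSO library A.

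Corepressors of the SIN3 and NCOR type, which the MXD proteins recruit, numbered 16, of which 5 rose, 4 fell and 7 did not pass in parental cells. The shares were 31.2% and 25%, against 22.6% and 18.2% of all tested genes. Resistant cells had 4 higher (25%) and 7 lower (43.8%) than parental MAL3-101 cells, against 21.3% and 34.8% of all tested genes. They had 2 higher (12.5%) and 5 lower (31.2%) than DMSO cells, against 20.9% and 29.7%. With median-ratio or upper-quartile scaling 5 were higher than in DMSO cells. The medians in the 3 comparisons were -0.03, -0.19 and 0.01. In parental cells 2 rose without MAL3-101 library A and 3 without B. Between the lines 4 were lower without parental MAL3-101 library B, and 3 without any 1 of parental library A and the resistant libraries. Against DMSO 1 was higher without either resistant library and 6 without DMSO library A. HDAC1, a histone deacetylase, had 100.8 and 100.8 TPM in resistant MAL3-101, 142.7 and 145.3 TPM in parental MAL3-101 and 174.9 and 169.2 TPM in DMSO libraries, and a log2 fold change of -0.77 (SE 0.04) against DMSO. HDAC2, of the same list, had 439.9 and 430.7 TPM, 373.5 and 362.9 TPM, and 380.1 and 394.0 TPM in that order. HDAC2 was higher in resistant than in parental MAL3-101 cells, by 0.24 (SE 0.04, limma adjusted p = 0.00276). The MLX arm list covers a parallel network of glucose-sensing factors and also TXNIP and ARRDC4, which are targets of it. Of its 5 genes 4 were tested. In parental cells 1 rose, TXNIP with 0.41 (SE 0.09), and 3 did not pass. The list's medians in resistant cells were -0.54 against parental MAL3-101 and -0.35 against DMSO cells, beside -0.10 and -0.06 over all tested genes. Called lower were 34.8% and 29.7% of all tested genes. All 4 of the list were lower in resistant than in parental MAL3-101 cells, MLXIP with -0.59 (SE 0.08), and against DMSO 3 were lower and 0 higher. Of the 4, 2 were called lower without any 1 of parental library A, resistant library A and resistant library B, and TXNIP's rise in parental cells was lost without either parental MAL3-101 library, while without DMSO library A 2 rose and 1 fell.

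Factors that act on MYC protein stability numbered 24, of which 8 rose, 3 fell and 13 did not pass in parental cells, PIM2, a kinase, with 0.79 (SE 0.13) and HUWE1, a ubiquitin ligase, with 0.63 (SE 0.06). The list mixes factors that stabilize MYC proteins with ones that degrade them. Its counts therefore give no direction for MYC protein, which was not measured here. The count of rises was 3 without either parental MAL3-101 library, and that of falls was 6 without DMSO library B and 5 with upper-quartile scaling. The shares were 33.3% and 12.5%, against 22.6% and 18.2% of all tested genes, and the list's median of 0.03 was at the 0.02 of all genes. Between resistant and parental MAL3-101 cells 8 were higher and 8 lower, AURKA, a kinase that shields MYCN protein from degradation, with 0.83 (SE 0.06) and PIM1 with -1.26 (SE 0.11). Against DMSO 8 were higher and 9 lower, with STUB1, the ubiquitin ligase CHIP, at -0.78 (SE 0.06). The shares of this list between the lines were 33.3% higher and 33.3% lower, against 21.3% and 34.8% of all tested genes. Against DMSO they were 33.3% and 37.5%, against 20.9% and 29.7%. Of 9 regulators of MYC and MYCN transcripts 2 rose (22.2%), 2 fell (22.2%) and 5 did not pass in parental cells, against 22.6% and 18.2% of all tested genes. Resistant cells had 1 higher (11.1%) and 4 lower (44.4%) than parental MAL3-101 cells, against 21.3% and 34.8% of all tested genes. Against DMSO 0 were higher and 4 lower (44.4%), against 20.9% and 29.7%. IGF2BP1, which binds and stabilizes MYC mRNA, had 106.6 and 106.1 TPM in resistant MAL3-101, 84.1 and 74.1 TPM in parental MAL3-101 and 98.4 and 90.0 TPM in DMSO libraries, and so was lowest in parental MAL3-101 libraries. Its relative IGF2BP2 had the opposite pattern, with 35.7 and 35.3 TPM, 55.0 and 54.3 TPM, and 43.3 and 47.1 TPM in the same order of groups. TCF7L2, a transcription factor of the WNT pathway, was likewise highest in parental MAL3-101 libraries, with log2 fold changes of 0.40 (SE 0.06) against DMSO and -0.66 (SE 0.06) for resistant against parental MAL3-101. The list's counts in those comparisons stand beside medians of 0.02, -0.18 and -0.14, against 0.02, -0.10 and -0.06 over all genes. With median-ratio scaling 2 and 1 regulators were higher in resistant cells, against parental MAL3-101 and DMSO cells. In parental cells 1 regulator rose without either MAL3-101 library, 0 fell without library B, and 1 fell without either resistant library. Between the lines 2 were higher without either DMSO library, and against DMSO 1 was higher without DMSO library A.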

How the data were processed

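Transcript levels were measured in 6 libraries of RMS13 and RMS13-R cells. Per the labels' protocols, total RNA was extracted with a column kit for paired-end TruSeq libraries. RSEM, DESeq and hg19 are named per the submitters' processing notes, while versions, aligner, annotation and strand setting are unknown here. The deposited values are TPM per gene name with 2 decimals, 1 file per library. TPM keeps no depth, so no counting interval is given and no count model was run.

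Groups came from the titles; those of the DMSO libraries also carry the drug's name, but their descriptions name DMSO alone. Values were taken as log2(TPM + 1), which understates fold changes of low genes. The 15148 genes with a group mean of at least 1 TPM were tested. Group means of all 6 libraries were fitted together in limma 3.58.1 (R 4.3.3) with a mean-variance trend and 3 residual and 4.17 prior degrees of freedom. P-values were adjusted by Benjamini-Hochberg within each comparison, with calls at an adjusted p under 0.05. The code was tested on simulated libraries. The members and lists were chosen with earlier results of these data known. The text draws on up to 4 called genes per list and comparison with the largest change and a group mean of at least 5 TPM, and on the nearest of 3 profiles computed per member. TRIB1, FAM84B, MYCNOS and HDAC2, and DDX1, SQLE and THBS1 in parental cells, fall outside that rule and were chosen after their values were seen. PECAM1, an endothelial marker, was not found by name. Overlaps are from GENCODE 29 and promoters from RefSeq. The main fit did not pair the libraries by A and B. Deviations from group means over all tested genes correlated between groups at -0.0207, -0.0203 and 0.0263. Such values cannot exclude that libraries of one letter shared a day or batch. Alternatives were other pseudocounts and filters, fits to the compared libraries alone, a block for replicate, leaving out each library and no trend. Others were median-ratio and upper-quartile scaling and TPM recomputed without mitochondrial genes.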

Additional observations from a re-analysis of the deposited data

How the results depend on the processing

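Over 16 alternatives, the calls and directions of MYC, MYCN, MXD1 and MXD3 held in parental MAL3-101 against DMSO and in resistant against parental MAL3-101, and MXD4 stayed called in resistant MAL3-101 against DMSO. MYC ranged from 0.63 to 0.98 and MXD1 from 1.87 to 2.12 on the log2 scale in parental MAL3-101 against DMSO. Leaving out single libraries gave 4 to 8 members and 3169 to 7684 genes called in that comparison, 4 to 9 members and 5999 to 10111 genes in resistant against parental MAL3-101, and 1 to 4 members and 5001 to 8640 genes in resistant MAL3-101 against DMSO. The lowest gene counts came without library A of the parental MAL3-101 pair in the first, and of the resistant pair in the others. Where a group was left with 1 library, it was assumed to vary like the others. Signs turned in resistant MAL3-101 against DMSO, for MAX (0.0119) and MYCN (0.0113) with median-ratio scaling, and over the leave-outs for MXI1 (-0.0374 to 0.3868), MYCL (-0.0967 to 0.2361) and MYC (-0.1332 to 0.2105); the cause was not tested. MXD4 in resistant against parental MAL3-101 also lost its call without the filter (limma adjusted p = 0.0982) and without the trend (limma adjusted p = 0.0536). With the replicate block, 5942, 8381 and 7492 genes and 5, 7 and 2 members were called, and no member's call changed. Scaling moved the split over all genes. In resistant against parental MAL3-101 it was 3228 higher and 5267 lower as deposited, 4224 and 4361 with median-ratio and 4333 and 4237 with upper-quartile scaling. In resistant MAL3-101 against DMSO it was 3160 and 4502, 4058 and 3766, and 3867 and 3926. In parental MAL3-101 against DMSO it was 3429 and 2752, 3279 and 3019, and 2996 and 3413. Read depth is unknown and 2 libraries a group limit precision.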
